A study of Homo sapiens with 14 samples.

Results

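The genes described here are 10 genes of amino acid transport and of the cellular response to amino acid shortage: SLC7A5, SLC3A2, SLC7A11, SLC1A5, SLC38A2, ASNS, ATF4, DDIT3, TRIB3 and SESN2. Their peaks were taken from the deposited lists of SKI and RUNX1 binding wherever a list gave one of them as the gene of the nearest transcript. This gave 67 of the 88872 peaks in 4 lists and reached 9 of the 10 genes. In all, 24510 genes were named by a peak, 13808 of them protein-coding. The set was not picked blindly: SLC7A5 was chosen on a strong SKI site without RUNX1 in these same lists, so the values of that site are a description and carry no weight as evidence.

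Binding was mapped by chromatin immunoprecipitation and sequencing in HL60, an established human acute myeloid leukaemia cell line grown in RPMI with fetal calf serum. SKI was immunoprecipitated from unmodified (WT) cells in replicates 1 and 2 and from a CRISPR/Cas9 control line named CTR-1, and RUNX1 from unmodified cells. No group received a treatment according to the labels, and amino acid supply was not varied. The other 10 of the 14 samples of the series, including SKI immunoprecipitations from SKI-deleted cells and IgG controls, were not analysed here. What part of the SKI signal is lost when SKI is deleted was therefore not measured.

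Cells short of amino acids activate the integrated stress response, in which phosphorylation of the initiation factor eIF2 slows translation in general while the mRNA of the transcription factor ATF4 is translated more. ATF4, usually paired with a C/EBP-family protein, then switches on genes for amino acid uptake and synthesis, and several of the genes below are textbook ATF4 targets. SKI is a corepressor that reaches DNA through partners such as the SMAD proteins, whereas RUNX1 binds DNA itself and is needed for blood cell formation.

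The promoters are shown first because RUNX1 peaks named only ASNS and SLC3A2, both at transcription starts. The SKI site of the set with the highest fold enrichment in unmodified replicate 2 and the control line lay inside SLC7A5. In replicate 1 an ASNS site was slightly higher, with 144 against 141. The sequences are from RefSeq (GRCh38.p14) and run 5′ to 3′ on the gene's strand up to the base before a transcription start. Capitals mark matches on either strand to the RUNX core (TGTGGT or TGCGGT), to the C/EBP-ATF composite element bound by ATF4 dimers (TGATGNAA), and to SMAD motifs (CAGAC or the palindrome GTCTAGAC). The ASNS promoter lies at chr7:97872409-97872658 on the minus strand and has 1 composite element, 68 bases before the start. The first SLC3A2 promoter lies at chr11:62855859-62856108 on the plus strand and has 1 RUNX core, on the opposite strand, 130 bases before the start. The SLC7A5 promoter lies at chr16:87869508-87869757 on the minus strand and has none of these motifs in its 250 bases.
ASNS: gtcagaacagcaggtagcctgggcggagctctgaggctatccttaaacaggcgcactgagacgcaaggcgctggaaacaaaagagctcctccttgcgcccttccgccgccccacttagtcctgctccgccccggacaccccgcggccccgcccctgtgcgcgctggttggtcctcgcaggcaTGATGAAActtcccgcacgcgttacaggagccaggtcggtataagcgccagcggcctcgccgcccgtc
SLC3A2: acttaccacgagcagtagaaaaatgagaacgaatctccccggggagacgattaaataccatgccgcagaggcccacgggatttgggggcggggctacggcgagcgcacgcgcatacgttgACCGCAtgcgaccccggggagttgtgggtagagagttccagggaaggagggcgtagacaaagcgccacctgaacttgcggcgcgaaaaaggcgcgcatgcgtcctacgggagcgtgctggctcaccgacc
SLC7A5: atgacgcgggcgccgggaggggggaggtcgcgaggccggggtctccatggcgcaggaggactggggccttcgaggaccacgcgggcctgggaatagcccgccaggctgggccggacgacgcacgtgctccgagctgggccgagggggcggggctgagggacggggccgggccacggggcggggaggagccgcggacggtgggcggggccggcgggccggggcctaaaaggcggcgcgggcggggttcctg

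Short windows of 30 bases show the remaining RUNX core and composite matches. A second ASNS start, 243 bp downstream of the first in RefSeq, is preceded by a RUNX core 94 bases upstream (chr7:97872242-97872271, minus strand) and another 31 bases upstream (chr7:97872179-97872208, minus strand). SESN2 has a RUNX core 41 bases before its start (chr1:28259465-28259494, plus strand). SLC1A5 has a composite element 97 bases before its most downstream start (chr19:46784893-46784922, minus strand).
ASNS, 94 bases before the second start: aggggtggaggaTGCGGTcttcagcctggc
ASNS, 31 bases before the second start: tgctgcggctccTGCGGTagggagggcggg
SESN2: cctcccccggggACCGCAgcgggctgaact
SLC1A5: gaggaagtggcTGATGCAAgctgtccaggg

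Counted over every start in the table, 9 of the 10 genes had 18 promoters, and SLC7A11 was not among them. TGCGGT was found in 3 of the 18, against 5.84% of 35116 RefSeq promoters of the same length, and TGTGGT in 0 of 18, against 11.0%. TGATGNAA was found in 2 of 18 (3.14% of all), CAGAC in 9 of 18 (38.0% of all), GTCTAGAC in 0 of 18 (0.182% of all) and the GC box GGGCGG, which is not capitalised above, in 16 of 18 (42.6% of all). The 18 promoters were rich in G and C, with 58.4% to 79.6% and a median of 67.0%, against 58.0% for all promoters. Promoters of 1 gene can overlap and share a match. A match is a string of letters, not a measured site. Peak positions from here on are on hg19, as deposited, and cannot be set on the GRCh38 sequences above.

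SKI peaks naming these genes numbered 33 in unmodified replicate 1, 17 in unmodified replicate 2 and 14 in the control line, and RUNX1 peaks numbered 3. The lists differ in length: 54841, 14431 and 14019 SKI peaks and 5581 RUNX1 peaks, with a median of 97, 56, 61 and 56 tags (mapped reads) per peak. Replicate 1 stands apart not only by its length. Its rows are numbered, and 20357 of the numbers (27.1%) are absent. Why they are absent is not known, so a gene with no peak there is read as having no value rather than a zero. Peaks are therefore compared by their rank within a list, given as a percentage in which a small value means a strong peak. The rank is by fold enrichment, the authors' ratio of a peak over its background. Distances to a start are the deposited ones, which are not measured exactly from the listed summits: over peaks of 1 transcript the implied start varied by up to 460 bp. Where a distance is said to be from a rebuilt start, the median of those implied starts was used. Each list is 1 sample, and no test between samples was made.

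In each SKI list 8 of the 10 genes were named. Replicate 1 named 98.0% of all protein-coding genes with a peak, replicate 2 named 45.9% and the control 44.4%, so a peak in replicate 1 alone says little. Overlapping SKI peaks were joined into sites, and a site with a peak of every SKI list is called shared. A shared site was found at 8 of the 10 genes, all but SLC7A11 and DDIT3, against 35.9% of protein-coding genes named by a peak and 24.0% of all RefSeq protein-coding genes. Without SLC7A5, picked for a strong SKI site, the count was 7 of 9. With every SKI list reduced to the length of the RUNX1 list, the 5581 peaks of highest −log10 p, it fell to 5 of 10, or 4 of 9 without SLC7A5, beside 12.8% of protein-coding genes named by a peak of the whole lists. In the whole lists the 8 genes held 11 of the 8980 shared sites. Using replicate 2 and the control alone, sites held in common were found at 7 genes, without SESN2. They numbered 11, but not the same 11: the SESN2 site was lost and the broad SLC1A5 site split into 2. No share over all genes was computed for this setting.

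In strength these peaks were spread over the lists. The median rank of their peaks was 41.8%, 50.2% and 37.6% of the list in replicate 1, replicate 2 and the control, and 63.2% for RUNX1. The median fold enrichment was 22.0, 10.3 and 14.4 for SKI and 15.0 for RUNX1, beside medians of 18.8, 10.4, 11.6 and 18.3 over the whole lists. Their position classes differed by list. The authors' class for peaks close to a start (TSS) held 15 of 33, 13 of 17 and 12 of 14 SKI peaks and 3 of 3 RUNX1 peaks, against 35.2%, 52.4%, 48.0% and 23.5% of the lists. Of the rest, 9 peaks of replicate 1, 1 of replicate 2 and 1 of the control were intronic.

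**Figure D1:**
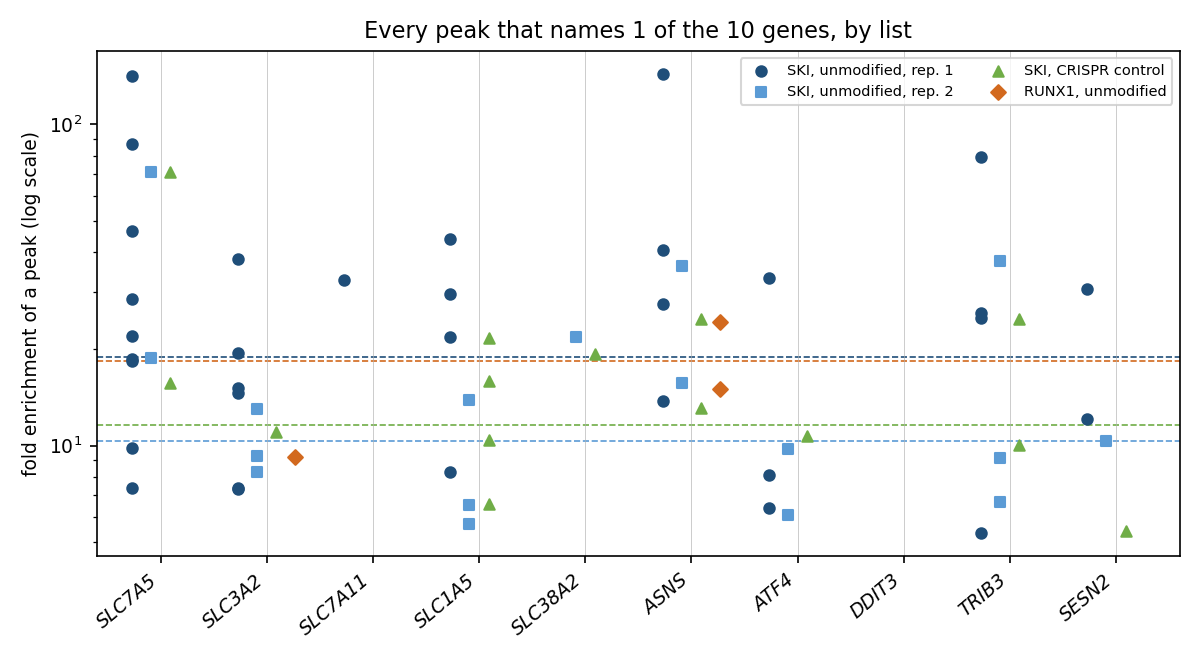
Fold enrichment (log scale, vertical axis) of all 67 peaks that name 1 of the 10 genes, by gene and list; each symbol is 1 peak and the dashed lines are the medians of the 4 whole lists in the same colours. SLC7A5 and ASNS reach above 140 in unmodified replicate 1, SLC7A5 also reaches about 71 in the other SKI lists, and DDIT3 has no symbol.

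RUNX1 peaks named 2 of the 10 genes, ASNS and SLC3A2, against 17.1% of protein-coding genes with a peak and 11.2% of RefSeq protein-coding genes. Only ASNS had RUNX1 on a shared SKI site, against 11.0% of protein-coding genes. Of the 11 shared sites 2, both at ASNS, held a RUNX1 peak, 18.2% (95% Wilson interval 5.14% to 47.7%, counting error only), beside 33.5% of all shared sites. The interval takes the sites as independent, though ASNS, SLC1A5 and SLC7A5 hold 2 each, and it includes SLC7A5. It is therefore no measure of how these sites differ from all shared sites. Without SLC7A5, chosen for lacking RUNX1, the count was 2 of 9. Shared sites with a peak of the TSS class made up 9 of the 11, against 51.7% of all shared sites. Of these 9, 2 (22.2%) held RUNX1, beside 20.1% of all shared sites of that class.

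SLC7A5 encodes the light chain of the large neutral amino acid transporter LAT1, which brings in leucine. Its strongest SKI site was intronic (chr16:87887002-87888816), between 9693 and 9751 bp downstream of the start of transcript ENST00000565644 with its summits 15549 to 15595 bp from the rebuilt start of the main transcript ENST00000261622. Fold enrichment was 141 in replicate 1, 70.9 in replicate 2 and 71.2 in the control, on 909, 227 and 257 tags. The peak ranked 206th, 110th and 187th in these lists, within the top 0.376%, 0.762% and 1.33%. The 3 summits lay within 46 bp of one another, and no RUNX1 peak overlapped the site.

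A further shared site of SLC7A5 lay upstream of the main start (chr16:87903968-87905595), at -1593, -1625 and -1536 bp in replicate 1, replicate 2 and the control. It had 86.9, 18.7 and 15.6 fold enrichment on 483, 55 and 53 tags, ranking at 3.45%, 17.6% and 32.9%. It was thus far nearer the intronic site in replicate 1 than in the other lists. At the main start itself, 17 bp from it, only replicate 1 had a peak, with 46.6 fold and 254 tags. In all, 7 of the 9 SLC7A5 sites were listed in replicate 1 alone, with 7.39 to 46.6 fold enrichment, and 4 row numbers are absent from that list between them.

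Among shared sites without RUNX1, the genes whose best site ranked most like the intronic SLC7A5 site across the 3 SKI lists were KLF10, LYZL1, BCL11A, ERICH1 and MIR4439. Likeness was the largest difference in rank over the lists, which was 0.199 percentage points for KLF10, 0.336 for LYZL1, 0.491 for BCL11A, 0.492 for ERICH1 and 0.499 for MIR4439. KLF10, a TGF-beta-inducible zinc finger gene, had 130, 69.0 and 70.1 fold enrichment, with its site 196 bp from a start. BCL11A, a zinc finger gene of blood cells, had 120, 95.6 and 76.6.

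SLC3A2 encodes 4F2hc, the heavy chain that carries both SLC7A5 and SLC7A11 to the cell surface. Its shared SKI site (chr11:62647359-62650045) covered a pair of starts, those of ENST00000541372 and ENST00000537508. Its strongest peaks had 38.2, 13.0 and 11.0 fold enrichment in replicate 1, replicate 2 and the control, with 738, 141 and 157 tags over the site. Their ranks were 20.6%, 34.8% and 54.1%. No RUNX1 peak lay there.

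RUNX1 was found instead at the first SLC3A2 start, that of ENST00000377890, whose rebuilt position is 24752 bp upstream of that of ENST00000541372. The RUNX1 peak had 9.22 fold enrichment and 39 tags, a weak one at rank 87.5% of its list, with a deposited distance of -5 bp from that start. SKI peaks overlapped it in replicate 1 (15.1 fold, 145 tags) and replicate 2 (9.30 fold, 40 tags), and no SKI peak was listed there in the control. The SKI summits were 25 and 56 bp from the RUNX1 summit. RefSeq places its first SLC3A2 start 24787 bp before the next, close to this spacing, and the SLC3A2 promoter printed above precedes that first start. This is a likeness of spacing only, as no positions were converted between builds. The other 4 SLC3A2 sites were in replicate 1 alone, with 7.33 to 19.4 fold enrichment, and 2 row numbers are absent between the peaks of that list.

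**Figure D2:**
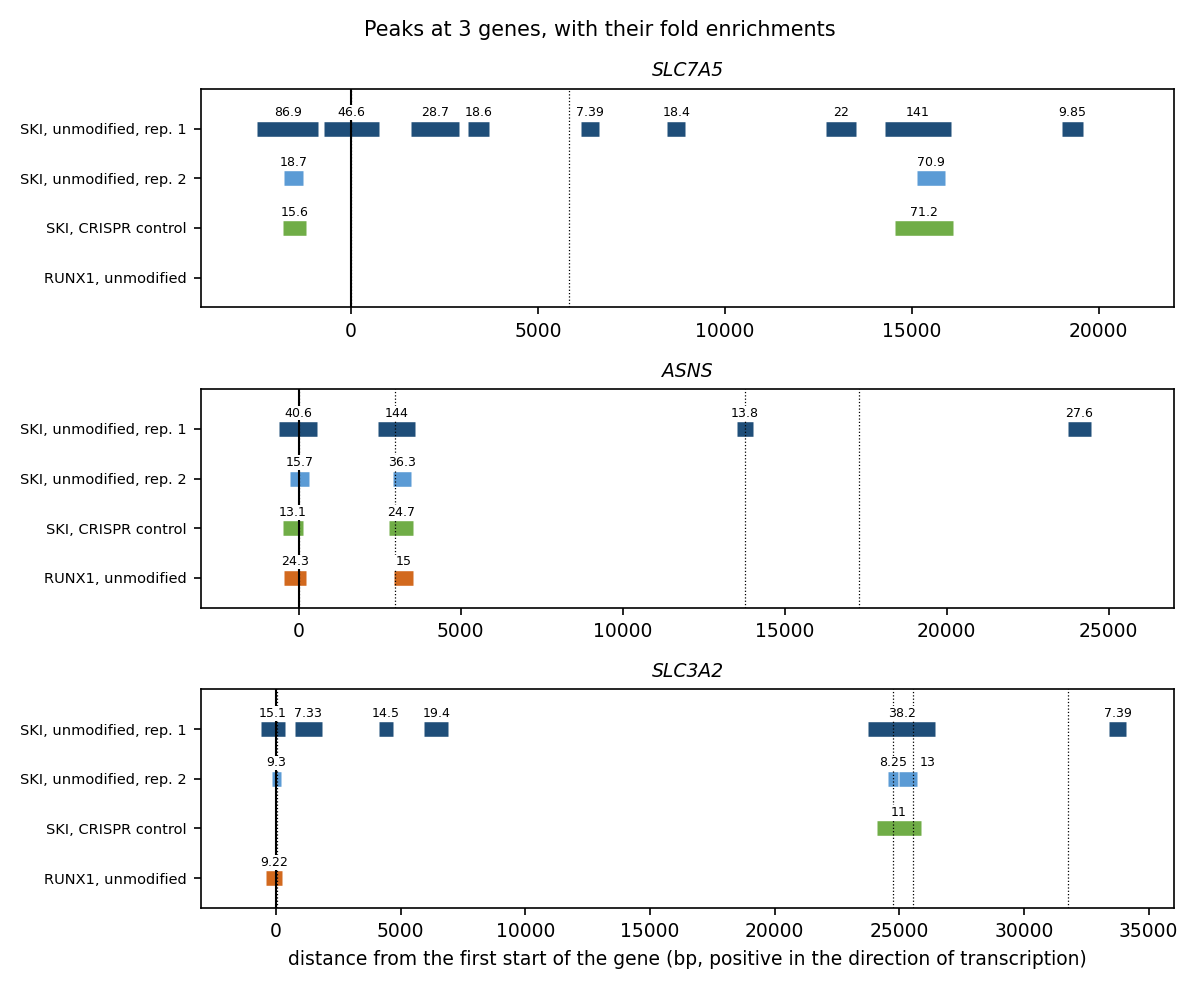
Peaks of each list at SLC7A5, ASNS and SLC3A2 as bars by distance from the gene's first start (solid line, bp, positive downstream), with fold enrichment above each bar; dotted lines are other starts rebuilt from the deposited distances. RUNX1 bars sit on SKI bars of all 3 lists at both ASNS sites, on SKI bars of both unmodified replicates at the first SLC3A2 start, and nowhere at SLC7A5.

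SLC7A11 encodes the cystine and glutamate exchanger xCT, whose imported cystine feeds glutathione synthesis. It had a single SKI peak, in replicate 1, 137 bp upstream of its start (chr4:139163082-139164046), with 32.9 fold enrichment, 136 tags and rank 25.3%. Neither replicate 2, the control nor RUNX1 listed a peak for the gene.

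SLC1A5 encodes ASCT2, the main glutamine importer of many tumour cells. Its broad shared SKI site (chr19:47287392-47291197) spanned internal starts of the gene, with 44.1 fold enrichment in replicate 1, 6.53 in replicate 2 and 21.7 in the control on 1088, 97 and 247 tags. The control thus held 2.55 times the tags of replicate 2, a ratio above that of 96.3% of all shared sites, where the median was 1.08. The ranks were 16.6%, 81.6% and 18.4%, so replicate 2 was the weak list here. A smaller shared site at -3573, -3441 and -3529 bp from the first start (chr19:47294890-47295726) had 29.6, 13.9 and 10.4 fold enrichment on 237, 61 and 48 tags. At the first start of ENST00000542575 replicate 1 had a peak of 21.8 fold and the control one of 6.57, and replicate 2 had none. No RUNX1 peak named the gene.

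SLC38A2 encodes SNAT2, a carrier of small neutral amino acids that amino acid shortage induces. Its shared site (chr12:46764707-46767713) had 47.5 fold enrichment in replicate 1, 21.9 in replicate 2 and 19.3 in the control, with 1031, 190 and 257 tags. The ranks lay close together, at 14.7%, 12.7% and 22.6%, but they belong to different summits. The summits spanned 1230 bp, a range above that of 97.1% of all shared sites. The replicate 1 summit lay 15 bp from the start of RP11-474P2.2. The replicate 2 peak that covers it had 11.0 fold enrichment, at rank 44.9%. The gene goes unnamed in replicate 1 because that list gives the site to RP11-474P2.2, whose start lies next to that of SLC38A2. One of the 2 replicate 2 peaks in the site also carries that name.

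ASNS encodes asparagine synthetase, which makes asparagine from aspartate and glutamine and is the enzyme whose lack makes some leukaemias sensitive to asparaginase. It was the single gene of the set with RUNX1 on shared SKI sites, and both of its shared sites held it. The stronger SKI site (chr7:97497871-97499034) lay at the internal start of ENST00000495255, at deposited distances of 236 to 256 bp downstream. It had 144 fold enrichment in replicate 1, 36.3 in replicate 2 and 24.7 in the control, on 527, 97 and 142 tags, ranking at 0.336%, 4.10% and 14.2%. RUNX1 had 15.0 fold enrichment there on 60 tags, at rank 63.2%. The RUNX1 summit was 12, 11 and 2 bp from the SKI summits of replicate 1, replicate 2 and the control.

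The other ASNS site (chr7:97500913-97502068) lay at the start of ENST00000442734, with deposited distances of -80, -71 and -87 bp in replicate 1, replicate 2 and the control. Its SKI summits were 3238, 3275 and 3293 bp upstream of those of the internal site, and the rebuilt starts of the 2 transcripts were 2970 bp apart. The RefSeq starts of ASNS lie 243 bp apart, unlike this spacing. The ASNS sites were therefore not paired with the promoters printed above. SKI had 40.6, 15.7 and 13.1 fold enrichment on 381, 89 and 74 tags. The ranks were 18.8%, 25.0% and 42.4%. RUNX1 had 24.3 fold enrichment on 73 tags, at rank 33.7%, and its summit was 59, 1 and 10 bp from the SKI summits. By fold enrichment the order of the 2 sites was thus opposite for the 2 proteins: SKI was higher at the internal site in every list and RUNX1 at the upstream one. The order was the same by tags, with SKI at 527, 97 and 142 on the internal site against 381, 89 and 74. RUNX1 had 60 tags on the internal site against 73, a small gap in 1 sample that was not tested. Over all overlapping pairs of SKI and RUNX1 peaks the median distance between summits was 32 bp. Further peaks of replicate 1 alone had 27.7 and 13.8 fold enrichment, and 1 row number is absent between the ASNS peaks of that list.

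ATF4 encodes the central transcription factor of the response. Its shared site (chr22:39914635-39917756) covered its starts and had modest enrichment of 33.3, 9.79 and 10.7 in replicate 1, replicate 2 and the control. The site held 605, 180 and 131 tags, and its strongest peaks ranked at 24.9%, 53.7% and 56.3%. Replicate 2 split it into 2 peaks. A stronger shared site, with summits 6338 to 6363 bp from a rebuilt ATF4 start, is given to RPS19BP1 in all 3 lists, with 60.8, 24.1 and 18.2 fold enrichment. No RUNX1 peak named ATF4.

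DDIT3 encodes CHOP, a C/EBP-family factor induced by ATF4 under prolonged stress. No peak of any list named it. In RefSeq its start faces that of MBD6, which is read in the opposite direction, and the 2 genes lie 198 bp apart. At a start of MBD6, ENST00000551351, replicate 2 had a SKI peak of 13.3 fold enrichment and 155 tags (chr12:57913991-57914982, rank 33.2%) and the control one of 12.2 and 95 tags (chr12:57914079-57915049, rank 47.1%), both given to MBD6. Further MBD6 peaks had 11.8 and 10.6 fold in replicate 2 and 19.5 in the control. Whether these peaks reach the DDIT3 start was not measured, since no hg19 annotation of it was used here. In replicate 1, 3 row numbers are absent between the neighbouring genes MARS and DCTN2. What those rows held is not known, so that list is read as giving no value for the locus. That DDIT3 is unnamed is thus a statement about the naming of peaks in replicate 2, the control and RUNX1.

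TRIB3 encodes a pseudokinase that CHOP and ATF4 induce and that restrains AKT signalling and ATF4 itself. Its shared site (chr20:360575-363123) had the best weakest rank of the set without RUNX1 after the intronic one of SLC7A5. It had 79.2 fold enrichment in replicate 1, 37.6 in replicate 2 and 24.7 in the control, on 1191, 362 and 224 tags, at ranks of 4.63%, 3.75% and 14.2%. The strongest peaks lay 249, 237 and 301 bp downstream of the start. A site about 8.6 kb upstream, at -8632 bp in replicate 1 and -8663 bp in replicate 2, had 25.9 and 6.69 fold enrichment and no peak in the control. No RUNX1 peak named TRIB3.

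SESN2 encodes a sestrin that senses leucine and holds back mTORC1. Its site (chr1:28584906-28587460) had 30.8 fold enrichment in replicate 1, 10.3 in replicate 2 and 5.41 in the control, on 488, 37 and 38 tags. It was the weakest of the 11 in the control, at rank 94.6%. The replicate 2 peak, at -294 bp from the start, and the control peak, at 628 bp, did not overlap each other and were joined only by the wide replicate 1 peak. Its status as shared therefore rests on replicate 1. Among all shared sites 99.0% had overlapping peaks of replicate 2 and the control, and 10 of the 11 here did.

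**Figure D3:**
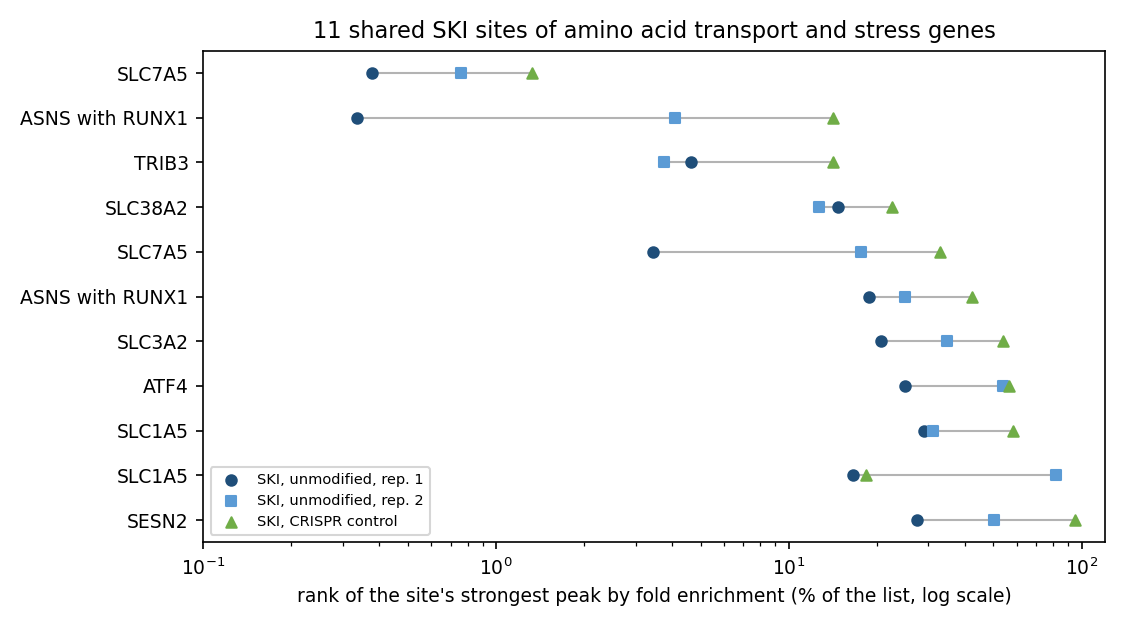
Rank of the strongest peak of each of the 11 shared SKI sites within its list (percent, log scale, strong to the left), with 1 symbol per SKI list and a grey line over their range; sites are ordered by their weakest rank. The intronic SLC7A5 site stays within 1.33% in every list, the stronger ASNS site runs from 0.336% to 14.2%, and SESN2 reaches 94.6%.

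Side by side, the weakest rank of the 11 sites ran from 1.33% to 94.6%. Its median was 42.4%, beside 52.7% for all 8980, and 6 of 11 were stronger than that genome-wide median. The 11 include the SLC7A5 sites, at 1.33% and 32.9%, and SLC7A5 was picked for a strong site. The other 9 had weakest ranks of 14.2%, 14.2%, 22.6%, 42.4%, 54.1%, 56.3%, 58.3%, 81.6% and 94.6%. The middle of these 9, 54.1%, was weaker than the 52.7% of all shared sites. Over all 11, the median rank was 16.6% in replicate 1, 25.0% in replicate 2 and 32.9% in the control, beside 12.2%, 38.3% and 40.7% for all. Without SLC7A5 the middle ranks were 18.8%, 31.2% and 42.4%. The median width of the 11 sites was 2549 bp, beside 1534 bp for all, and the summits of the 3 lists spanned a median of 97 bp, beside 56 bp. The control held a median of 1.03 times the tags of replicate 2 at these sites, beside 1.08 at all. Replicate 1 held 5.23 times the tags of replicate 2, beside 5.86 at all. Of the 34 SKI sites of the genes in any list, 20 (58.8%) were in replicate 1 alone, beside 70.2% of all 55146.

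The wider pathway was read from 7 gene lists with 160 genes, of which 150 were named by a peak. A shared SKI site was found at 66 of the 160 (41.2%) and a RUNX1 peak at 23 (14.4%), beside 24.0% and 11.2% of RefSeq protein-coding genes. Without replicate 1 the count with a site common to the other SKI lists was 62, and no share over all genes was computed for that setting. With every SKI list cut to the length of the RUNX1 list, the count fell to 26 of the 160. Under that cut 12.8% of protein-coding genes named by a peak of the whole lists had a shared site. This base is narrower than the RefSeq genes above. It leaves out genes that no peak names, whereas only 150 of the 160 were named. In the whole lists a shared SKI site that itself held a RUNX1 peak was found at 12 of the 160 (7.5%), beside 7.26% of RefSeq protein-coding genes.

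Stress transcription factors and their targets had the highest count, with a shared SKI site at 21 of 29 genes (72.4%) and a RUNX1 peak at 7 (24.1%). JDP2, an AP-1 repressor, had 180, 32.7 and 42.5 fold enrichment at its start in replicate 1, replicate 2 and the control. NFE2L2, which encodes the oxidative stress factor NRF2, had 97.5, 23.0 and 36.2, with RUNX1 at 21.6 on the same site. ATF3 had 70.8, 27.7 and 22.9, and ATF5 had 52.8, 17.8 and 14.2 at -4174 bp from a start. The C/EBP genes CEBPA, CEBPB and CEBPG also had shared sites.

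Unfolded protein response genes followed with 10 of 18 (55.6%) for SKI and 4 of 18 (22.2%) for RUNX1. CALR, the chaperone calreticulin, was high for both proteins, with SKI at 75.6, 51.3 and 86.4 fold enrichment and RUNX1 at 99.4. HERPUD1 had 49.7, 11.7 and 13.4, MANF had 28.2, 8.90 and 13.8, and XBP1 had 50.9, 9.56 and 7.35, none with RUNX1 on the site.

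Other amino acid transporters had a shared SKI site at 9 of 27 (33.3%) and a RUNX1 peak at 1 (3.70%), SLC38A1. SLC7A7, the light chain of a cationic amino acid exchanger, had 83.6, 45.4 and 37.1 fold enrichment, with a RUNX1 peak of 11.3 on the site that the list does not give to SLC7A7. SLC1A4, a neutral amino acid carrier close to SLC1A5, had 71.7, 29.1 and 25.2. SLC43A2 had 110, 10.8 and 13.2, and SLC38A1 had 42.8, 10.0 and 16.1, so that only SLC7A7 and SLC1A4 ranked within 15% in every list among these 4.

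Synthesis and one-carbon genes had a shared SKI site at 8 of 22 (36.4%) and RUNX1 at 4 (18.2%). MTHFD1L, a mitochondrial folate enzyme, had 51.6, 32.8 and 43.6 fold enrichment, GLUL (glutamine synthetase) 52.7, 12.0 and 14.5, PHGDH (the first enzyme of serine synthesis) 35.8, 10.5 and 12.2, and BCAT1 63.4, 13.0 and 9.24. The GLUL site lay at -2198 bp from a start, and the BCAT1 site was intronic, at 1876 bp. Aminoacyl-tRNA synthetases had 6 of 20 (30.0%) and RUNX1 2 of 20 (10.0%). Of these NARS had 47.7, 14.8 and 26.1, TARS 42.0, 19.2 and 11.6, WARS 40.5, 14.8 and 10.6, and GARS 46.6, 6.87 and 10.5, all at their starts.

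The list of eIF2, its exchange factor and the kinases and phosphatase parts that set its phosphorylation had a shared SKI site at 6 of 17 (35.3%) and RUNX1 at 0 of 17. PPP1R15A (GADD34) and PPP1R15B, which direct the phosphatase to eIF2, had 38.0, 8.62 and 7.16 and 77.3, 15.7 and 11.6 fold enrichment. The PPP1R15B site was intronic, at -5508 bp from a start. GCN1L1, the partner of the amino acid sensing kinase GCN2, had 25.7, 9.21 and 7.34, and EIF2B1 had 17.4, 7.12 and 6.70. Amino acid sensing genes of the mTORC1 pathway were lowest for SKI, with 6 of 28 (21.4%), and had RUNX1 at 5 (17.9%). GATSL3, an arginine sensor, stood out in its order, with 39.1 in replicate 1 and 53.3 and 57.4 in the other SKI lists, and RUNX1 at 8.56 on the site. That site was intergenic, at 7739 bp from a start. RHEB had 53.5, 12.7 and 14.7, RPTOR 53.1, 11.8 and 17.2, and RRAGC 23.7, 9.73 and 14.2. The RPTOR site was intronic, at -4717 bp from a start.

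**Figure D4:**
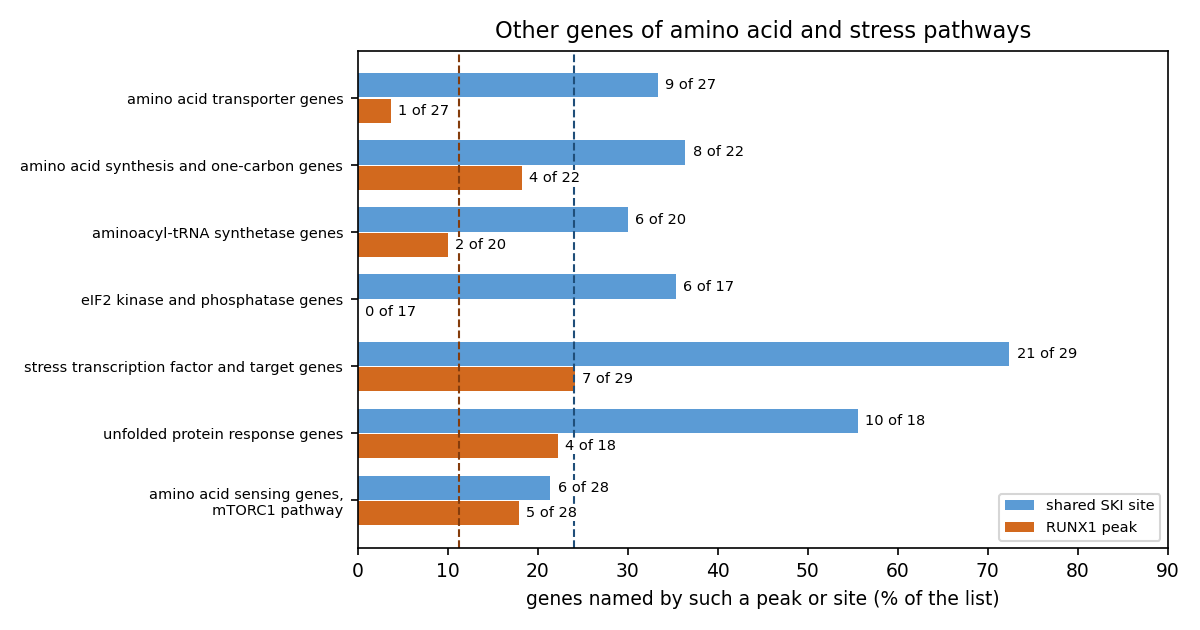
Percentage of the genes in each of 7 pathway lists named by a shared SKI site (blue bars) or a RUNX1 peak (orange bars), with counts at the bar ends; dashed lines give the same percentages over RefSeq protein-coding genes, 24.0% for SKI and 11.2% for RUNX1. The stress factor list has the longest SKI bar, 72.4%, and the eIF2 list has no RUNX1 bar.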

How the data were processed

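Peaks from 4 chromatin immunoprecipitation samples of HL60 cells were read per sample, with groups and replicate numbers from the sample titles. The submitters' processing notes name hg19 and GRCh37 as builds and, without their roles, the tools deepTools, MACS 1.4, Bowtie2 and bcl2fastq. Per the file headers, the deposited lists hold MACS tags (a count per peak), fold enrichment (a ratio), a −log10 p-value, the position class, the nearest transcript and the signed distance to its TSS. The deposited −log10 values start at about 5 and many tie at 310 (4622, 82, 267 and 291 peaks in unmodified SKI replicates 1 and 2, control SKI and RUNX1), so fold enrichment was used for ranks. Not given in the sources used here are the control library and the sequencing depth. The deposited FDR column was not used.

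A site was a run of SKI peaks in which each shared 1 bp or more with another. For a site, the text gives the fold enrichment and rank of its strongest peak in a list and the sum of its tags. Starts were rebuilt from the deposited distances. The joining was tested on simulated lists, in which all 2000 planted sites were recovered. In those lists the peaks of a site always overlapped and sites lay far apart, so joining through a wide peak was not tested. No test was made, since the genes and gene lists were chosen with earlier results of these data known. Named genes are all 10 genes, up to 4 per pathway list with the best weakest rank within 10 kb of a TSS, and the 5 most like the SLC7A5 site; the 3 C/EBP genes were named after their values were seen. RefSeq tables (GRCh38.p14) gave promoters, the background of 20056 protein-coding symbols and the gap between neighbouring genes; 96.3% of the protein-coding genes named by a peak matched a symbol. Alternatives were other ranks, distances to a TSS and overlap rules, a −log10 p threshold of 10, equal list lengths and each SKI list left out in turn. Software was matplotlib 3.10.9, scipy 1.17.1, pandas 2.3.3 and numpy 2.4.6 under Python 3.11.15.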

Additional observations from a re-analysis of the deposited data

How the results depend on the processing

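Of 55 values under alternative settings, 42 were within 1.5 times the reported one and 13 moved further, none of them a test. With every list cut to its 5581 peaks of highest −log10 p, a shared SKI site remained at SLC7A5, SLC3A2, SLC38A2, ASNS and TRIB3. These 5 genes stand beside 12.8% of protein-coding genes named by a peak of the whole lists. There were 5 shared sites, 1 of them with RUNX1, and 26 of 160 pathway genes had a shared site. SKI peaks numbered 6, 10 and 9 in unmodified replicate 1, replicate 2 and the control. This cut is uneven, keeping peaks from a −log10 p of 282 in replicate 1 but from 21.3 in replicate 2 and 34.3 in the control. The intronic SLC7A5 site ranked at 2.04%, 3.19% and 4.22% by tags and at 0.573%, 1.30% and 2.94% by −log10 p. In replicate 1 its −log10 p was 310, a value tied over 4622 peaks. The 0.573% is the top edge of that tie, so −log10 p does not resolve the rank there. Leaving out each SKI list gave 7 to 8 genes with a shared site, 11 to 13 sites, 2 to 3 with RUNX1 and 62 to 88 of 160 pathway genes. Leaving out a list changes the rule for a shared site at every gene. No share over all genes was computed for these settings, so the counts cannot be set beside other genes. SESN2 was lost without replicate 1, and the first SLC3A2 start joined the sites with RUNX1 without the control. No paired analysis was possible because no result comes from a test. The lists give tags within peaks only, so binding below the authors' threshold was not detectable here.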
